A study of Mus musculus with 12 samples.

Results

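The genes described here are 6 factors of formative and primed pluripotency, Otx2, Pou3f1, Sall2, Sox4, Cldn6 and Zic2, out of 18784 genes measured with a named probe set. They were chosen by their measured array levels, as primed-state genes lower in mouse embryonic stem cells (ESC) after Jarid1b knockdown than in control ESC. So the difference between knockdown and control ESC is a description of how they were picked and carries no test. Each had 1 probe set, and all 6 were measured on all 12 arrays. RNA came from ESC of the feeder-independent line E14TG2a.4, grown on gelatin with serum and LIF, and from neural progenitor cells (NPC) derived from such cells by a published differentiation procedure. In each state 3 arrays came from cells with a scrambled control shRNA (LKOScr) and 3 from cells with an shRNA against Jarid1b (LKOJarid1b), both delivered by a puromycin-selected lentivirus, so control cells were also transduced and selected. The sample records give 16 h for transduction and 48 h for the start of selection, alike for all 12 arrays. The labels name a single Jarid1b construct and do not say whether replicates were separate cultures or transductions, so each p-value reflects array-to-array spread, which could be technical.

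ESC in serum and LIF express genes of naive pluripotency, though a bulk sample need not be uniform in state. Naive cells can pass through a formative state towards the primed state of the epiblast after implantation, from which the germ layers arise. Otx2 and Pou3f1 (also called Oct6) are transcription factors that rise early in this transition and direct enhancer use in it, and Zic2 is a zinc finger factor that binds enhancers in ESC and epiblast cells. Sall2 and Sox4 are transcription factors of the spalt and SoxC families, and Cldn6 is a claudin of the tight junctions of early embryonic epithelia. Otx2, Pou3f1, Sox4 and Zic2 also act in the developing nervous system, so a neural culture can express them apart from any pluripotent state. Jarid1b, now named Kdm5b, encodes a demethylase of methylated lysine 4 on histone H3, a mark of active and CpG-rich promoters.

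Promoter sequence was at hand for 4 of the 6 genes, in 8 windows of 300 bases that run from 250 before to 50 after an annotated start (RefSeq, GRCm38.p6). The windows of Sall2 and Cldn6 are shown because these genes had the largest differences in ESC. Capitals mark each CG dinucleotide.
Sall2, chr14:52328621-52328920, minus strand: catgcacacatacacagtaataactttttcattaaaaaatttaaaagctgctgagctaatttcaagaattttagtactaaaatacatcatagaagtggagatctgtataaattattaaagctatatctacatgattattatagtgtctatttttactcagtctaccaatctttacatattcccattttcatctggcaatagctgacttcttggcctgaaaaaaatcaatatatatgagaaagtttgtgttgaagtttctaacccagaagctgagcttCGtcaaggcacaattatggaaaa
Sall2, chr14:52316274-52316573, minus strand: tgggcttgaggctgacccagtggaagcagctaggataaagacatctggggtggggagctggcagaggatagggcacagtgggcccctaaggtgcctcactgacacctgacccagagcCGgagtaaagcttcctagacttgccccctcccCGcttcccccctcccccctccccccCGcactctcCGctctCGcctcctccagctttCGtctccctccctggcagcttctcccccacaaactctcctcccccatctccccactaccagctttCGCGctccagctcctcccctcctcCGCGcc
Cldn6, chr17:23679115-23679414, plus strand: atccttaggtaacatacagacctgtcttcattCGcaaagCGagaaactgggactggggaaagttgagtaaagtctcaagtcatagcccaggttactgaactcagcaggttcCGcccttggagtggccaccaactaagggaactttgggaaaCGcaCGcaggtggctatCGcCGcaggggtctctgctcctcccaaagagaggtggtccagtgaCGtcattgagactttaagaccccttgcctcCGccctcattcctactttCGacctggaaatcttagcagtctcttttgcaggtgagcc
The upstream Sall2 window held 1 CG and the downstream window 10, and the Cldn6 window held 10. The Sox4 window held 12, and the 4 Otx2 windows held 6, 8, 16 and 11. The median over 32851 promoter windows was 7, and 43.5% of them held at least 10, so the member windows lay on both sides of the middle. The octamer ATGCAAAT, a POU factor motif, was searched on both strands and was in none of the 8 windows, and it was in 1.74% of all windows. The motif TAATCC, bound by Otx-type homeodomains, was in 1 Otx2 window and in 7.06% of all windows. The motif CTTTGA, bound by TCF and LEF factors, was in none of the 8 and in 16.0% of all windows. Which of the annotated starts these cells use was not measured.

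Levels are log2 values from the array normalization RMA, 1 per probe set and array, and their scale cannot be compared between genes. The correlation across genes was 0.992 to 0.997 between arrays of one group and 0.916 to 0.942 between an ESC and an NPC array. Kdm5b lay between 12.25 and 12.50 in control ESC and between 10.50 and 10.90 in knockdown ESC. In NPC it lay between 11.15 and 11.30 in control and between 10.38 and 10.54 in knockdown cells, so the targeted gene was lower in every knockdown array. The NPC label was checked against 9 neural progenitor markers, whose mean level was 7.56 to 7.80 on the ESC arrays and 10.15 to 10.43 on the NPC arrays. The mean of 8 neuronal markers was also higher, at 8.25 to 8.61 on the ESC and 10.20 to 10.55 on the NPC arrays. That of 5 endothelial markers was 6.63 to 6.77 in control ESC and 7.13 to 8.21 in control NPC. The check therefore does not tell pure progenitors from a mixed culture, and the share of each cell type was not measured. The mean of 8 ESC markers was 11.85 to 12.04 on the ESC arrays, 6.33 to 6.98 in control NPC and 7.03 to 7.99 in knockdown NPC.

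All 6 factors had a lower mean in knockdown than in control ESC, as the choice of genes asked, but they did so to different degrees. Sall2, Cldn6 and Pou3f1 were lower in every knockdown ESC array than in every control array, while the groups overlapped for Otx2, Sox4 and Zic2. Over all genes, 24.2% were separate in either direction and 13.6% in that direction, and 5.21% passed the test, a background from which nothing is read here. The median change of the 6 was -0.43, and that of all genes was 0.017. In bulk RNA, fewer cells that express a gene and less RNA per cell cannot be told apart.

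**Figure D1:**
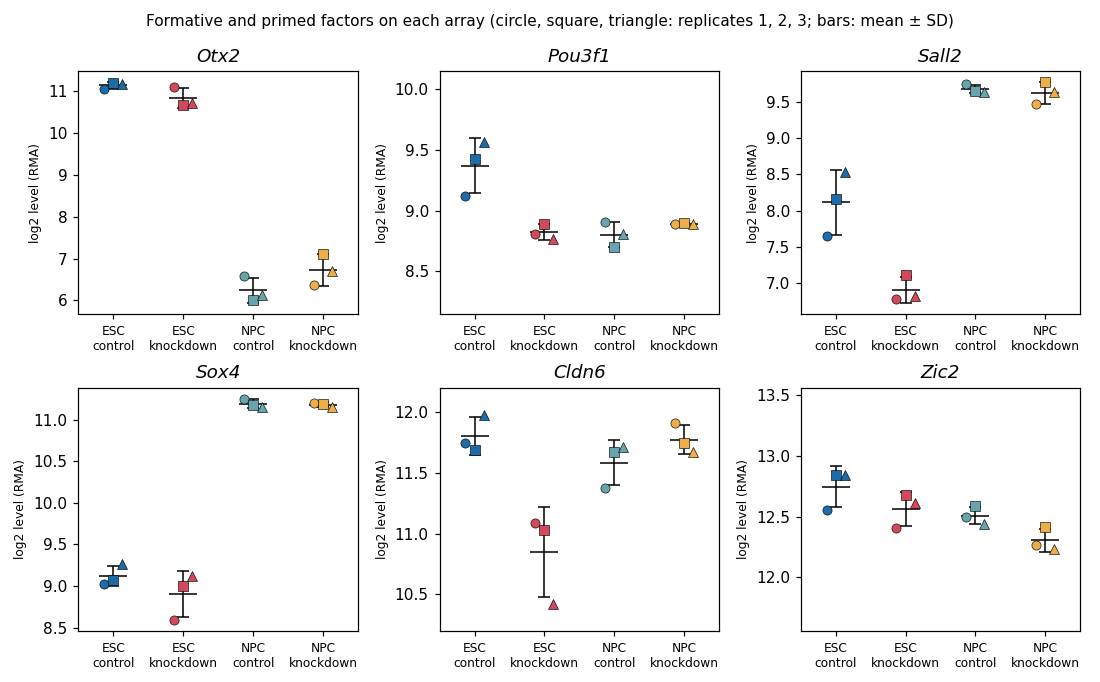
Log2 level of each factor on each of the 12 arrays, by group, with the replicates as circle, square and triangle and bars for the mean ± SD (n = 3). Each panel has its own axis range. Sall2, Cldn6 and Pou3f1 separate knockdown from control ESC, and Otx2, Sall2 and Sox4 separate ESC from NPC.

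Sall2, a spalt-type zinc finger factor, had the largest difference in ESC. It measured 7.65, 8.17 and 8.54 on the control ESC arrays and 6.78, 7.12 and 6.83 on the knockdown ESC arrays. The control arrays spread widely, and even the lowest of them was above every knockdown array. The difference was -1.21 ± 0.18 (SE), or 2.31-fold, the 45th largest drop of 18784 genes. In NPC Sall2 was higher, at 9.74, 9.65 and 9.63 in control and 9.47, 9.77 and 9.63 in knockdown cells. These NPC groups overlapped. From ESC to NPC it differed by 1.56 ± 0.18 in control and 2.71 ± 0.18 (SE) in knockdown cells, so the lower ESC level widened the gap between states. The order of levels was knockdown ESC, control ESC, then the NPC groups together. The genes most like it over the 12 arrays were the adhesion receptor gene Adgrl2 (Pearson r = 0.991) and Timm21 (r = 0.990), part of mitochondrial protein import.

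Cldn6, the tight junction claudin, measured 11.74, 11.69 and 11.98 in control ESC and 11.09, 11.03 and 10.42 in knockdown ESC. Knockdown replicate 3 was the lowest of all 12 arrays. The difference was -0.96 ± 0.16 (SE), or 1.94-fold, and -0.74 without that array. In NPC it measured 11.37, 11.67 and 11.71 in control and 11.90, 11.74 and 11.67 in knockdown cells. Control ESC and both NPC groups overlapped one another in order of level, and knockdown ESC lay below all of them. NPC minus ESC was -0.22 ± 0.16 in control cells and 0.93 ± 0.16 (SE) in knockdown cells. Its closest genes in pattern were Ugt8a (r = 0.932), which acts in galactolipid synthesis, and the gap junction gene Gja1 (r = 0.927).

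Pou3f1, a POU factor of the primed epiblast and of neural cells, measured 9.12, 9.43 and 9.57 in control ESC and 8.81, 8.89 and 8.77 in knockdown ESC. The difference was -0.55 ± 0.11 (SE), or 1.46-fold. In NPC it measured 8.90, 8.70 and 8.81 in control and 8.89, 8.90 and 8.89 in knockdown cells. Only control ESC stood apart: the other 3 groups overlapped with their neighbours in order of level. NPC minus ESC was -0.57 ± 0.11 in control and 0.069 ± 0.11 (SE) in knockdown cells. Its closest genes were Taf4b (r = 0.962), a subunit of the TFIID complex, and Ccno (r = 0.961), a cyclin family gene.

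Otx2, the homeobox factor that drives exit from the naive state and later patterns the forebrain and midbrain, measured 11.05, 11.21 and 11.17 in control ESC. In knockdown ESC it measured 11.10, 10.68 and 10.73. Knockdown replicate 1 lay within the control range, and the other two lay below it. The difference was -0.31 ± 0.19 (SE), or 1.24-fold, and it ranged from -0.44 to -0.23 when single ESC arrays were left out. Otx2 had by far the widest gap between states among the 6. In NPC it measured 6.59, 6.01 and 6.13 in control and 6.37, 7.11 and 6.70 in knockdown cells. NPC minus ESC was -4.90 ± 0.19 in control cells, the 22nd largest drop of 18784 genes, and -4.11 ± 0.19 (SE) in knockdown cells. The lower quartile of each array lay between 5.84 and 6.11, so Otx2 lay close to that range in control NPC, where the size of a drop is poorly measured. Its closest genes were Tcea3 (r = 0.995), a transcription elongation factor gene, and Gtsf1l (r = 0.995).

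Sox4, a SoxC factor of progenitors and early neurons, measured 9.03, 9.07 and 9.26 in control ESC and 8.59, 8.999 and 9.12 in knockdown ESC. Knockdown replicate 1 was the lowest, and the groups overlapped. The difference was -0.22 ± 0.12 (SE). It was -0.059 without knockdown replicate 1, -0.14 without control replicate 3 and -0.33 without knockdown replicate 3. In NPC Sox4 was higher and closely grouped, at 11.26, 11.17 and 11.16 in control and 11.21, 11.19 and 11.15 in knockdown cells. NPC minus ESC was 2.08 ± 0.12 in control and 2.28 ± 0.12 (SE) in knockdown cells. Its closest genes were the Wnt receptor gene Fzd3 (r = 0.997) and Hdgfl3 (r = 0.997).

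Zic2, a zinc finger factor of pluripotent cells and the neural tube, measured 12.56, 12.84 and 12.84 in control ESC and 12.40, 12.67 and 12.61 in knockdown ESC. The groups overlapped, with a difference of -0.18 ± 0.11 (SE). That value moved to -0.28 without control replicate 1 and to -0.11 without knockdown replicate 1. In NPC it measured 12.50, 12.58 and 12.44 in control and 12.26, 12.42 and 12.23 in knockdown cells, which did not overlap. NPC minus ESC was -0.24 ± 0.11 in control and -0.26 ± 0.11 (SE) in knockdown cells, the smallest gap between states in control cells next to that of Cldn6. Its closest genes were Cyp27b1 (r = 0.905), which activates vitamin D, and Cwf19l1 (r = 0.905). Correlations over 12 arrays share the 4 groups and the contrast used to pick the genes, and are given as a description.

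In control cells Sall2 and Sox4 were higher in every NPC array than in every ESC array, where 24.5% of all genes were, and Otx2 and Pou3f1 were lower, where 27.8% were. Cldn6 and Zic2 overlapped, while 52.3% of all genes were separate in either direction. In knockdown cells Sall2, Sox4 and Cldn6 were higher in every NPC array (28.5% of all genes) and Otx2 lower (33.9%), with Pou3f1 and Zic2 overlapping (62.4% of all genes were separate). The ESC arrays behind both comparisons are those that chose the genes, so these counts are a description.

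The factors did not move as a block across the 12 arrays. Of 15 pairs 7 correlated above 0, from -0.98 for Otx2 with Sox4 to 0.94 for Sall2 with Sox4. Otx2 was high in ESC and Sox4 and Sall2 were high in NPC. Over the 6 ESC arrays 14 of the 15 pairs correlated above 0, up to 0.995 for Pou3f1 with Sall2, a pattern that includes the contrast used to choose them. Over the 6 NPC arrays 8 of 15 did, from -0.67 to 0.76. Control ESC replicate 1 was the lowest control array for 5 of the 6 genes, all but Cldn6, and control replicate 3 the highest for 4. Without control replicate 1 the median change of the 6 was -0.51.

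The knockdown arrays of NPC took no part in the choice of genes, and there no factor passed limma's test with Benjamini-Hochberg adjustment over 18784 genes (0 of 6, adjusted p from 0.375 to 0.992). In that contrast 1.03% of all genes passed. An unadjusted p under 0.05 was found for 1 of 6, Otx2, against 9.52% of all genes. Otx2 differed by 0.49 ± 0.19 (SE, adjusted p = 0.375 by limma), with a 95% interval of 0.080 to 0.89, and the control and knockdown arrays overlapped. Zic2 differed by -0.20 ± 0.11 (SE, adjusted p = 0.620 by limma), with an interval of -0.43 to 0.025. It was the only factor whose NPC groups were separate. In NPC 14.2% of all genes were separate, 8.30% higher and 5.91% lower in knockdown cells. The intervals were -0.16 to 0.54 for Cldn6, -0.14 to 0.32 for Pou3f1, -0.44 to 0.33 for Sall2 and -0.27 to 0.25 for Sox4. Each p-value, SE and interval here uses 1 spread shared by the ESC and NPC arrays. They therefore also carry scatter of the ESC arrays that chose the genes. The SD of Sall2 was 0.45 and 0.18 in control and knockdown ESC, and 0.059 and 0.15 in control and knockdown NPC. That of Otx2 went the other way, at 0.085 and 0.23 in ESC and 0.31 and 0.37 in NPC.

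Whether the knockdown difference of a factor differs between ESC and NPC was not tested, because the ESC side chose the genes. For Sall2 the values side by side were -1.21 in ESC and -0.051 in NPC, for Cldn6 -0.96 and 0.19, and for Pou3f1 -0.55 and 0.090. Kdm5b itself differed by -1.725 ± 0.11 in ESC and by -0.76 ± 0.11 (SE) in NPC. The part of that in the factors' values was not tested. Of 8 ESC markers 3 rose and 0 fell in knockdown NPC, where 0.820% of all genes rose and 0.213% fell. Those that rose were Dppa5a (mean 8.08 in control and 10.50 in knockdown NPC), Tdgf1 (6.11 and 7.13) and Esrrb (6.58 and 7.23). Those that did not pass were Nanog (5.90 and 7.92), Pou5f1 (6.16 and 7.05), Klf4 (8.90 and 8.95), Zfp42 (5.40 and 5.53) and Dppa3 (6.74 and 6.54). Of 5 endothelial markers 0 rose and 3 fell, with a mean level of 7.13 to 8.21 in control and 6.16 to 6.56 in knockdown NPC. The part of either in the Otx2 value was not tested.

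**Figure D2:**
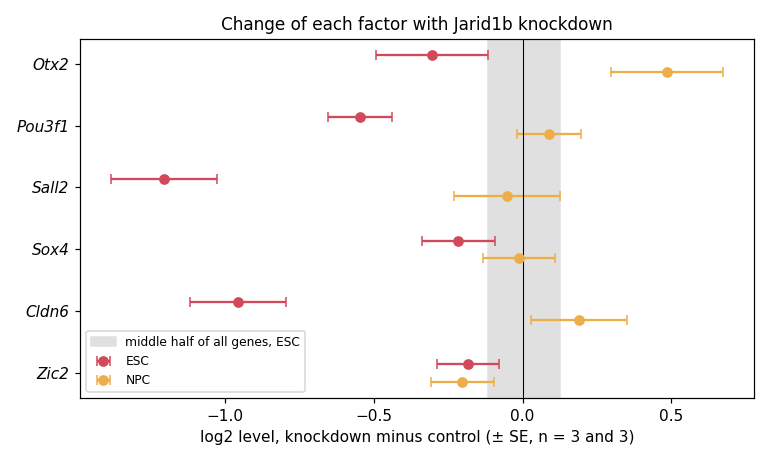
Knockdown minus control log2 level of each factor in ESC and in NPC (± SE, 3 arrays against 3), with the range between the quartiles of all genes in ESC shaded. The SE uses the spread shared by the ESC and NPC arrays. The ESC values run from -1.21 for Sall2 to -0.18 for Zic2, and the NPC values from -0.20 for Zic2 to 0.49 for Otx2.

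Of 19 other formative and primed genes measured, 10 fell in knockdown ESC, 0 rose and 9 did not pass. Over all genes 3.37% fell, and the median change was -0.59 in the list and 0.017 over all genes. The list was drawn up with the fall of primed genes in these arrays known, so its count describes that pattern and is not independent evidence of it. Lef1, which acts with beta-catenin on Wnt target genes, measured 8.99, 10.24 and 10.36 in control and 7.22, 8.07 and 7.39 in knockdown ESC. It fell by 2.30 ± 0.32 on the log2 scale (SE, adjusted p = 0.00313 by limma). Dnmt3b, which places new DNA methylation in the epiblast, measured 10.46, 11.25 and 11.21 in control and 9.72, 9.95 and 9.67 in knockdown ESC. It fell by 1.19 ± 0.17 (SE, adjusted p = 0.00371 by limma). For both genes control replicate 1 was the lowest of the control arrays and still above every knockdown array.

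Cdh2, the cadherin gained as epithelial cells change state, fell by 0.99 ± 0.11 (SE, adjusted p = 9.39e-04 by limma), and Sox11, a SoxC relative of Sox4, by 0.77 ± 0.10 (SE, adjusted p = 0.00298 by limma). The other six falls, named after their values were seen except Sall3 and Zic5, were those of Grhl2 (-1.37 ± 0.26), Fgf5 (-1.08 ± 0.24), Pim2 (-1.02 ± 0.22), Sall3 (-0.66 ± 0.17), Tcf15 (-0.59 ± 0.088) and Zic5 (-0.37 ± 0.087, all SE). Fgf5 encodes a growth factor widely used as a marker of the primed epiblast. Without control replicate 3, Fgf5 (adjusted p = 0.112), Grhl2 (0.0658), Pim2 (0.0697), Sall3 (0.185) and Zic5 (0.129) lost the call in the limma fit. The list then had 5 calls, as it had without knockdown replicate 3, and it had 6 without control replicate 2.

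Members of the list that did not pass included the ETS factors Etv4 (0.14 ± 0.17) and Etv5 (-0.0070 ± 0.11), Sox3 (0.17 ± 0.12), Tcf7l1 (0.16 ± 0.096) and Tead2 (-0.015 ± 0.082, all SE), also named after their values were seen. Fgf15 (-0.61 ± 0.23), Foxd3 (-0.52 ± 0.16) and Dnmt3a (-0.24 ± 0.097, all SE), named likewise, did not pass either. Each was lower in every knockdown than in every control ESC array. The ESC groups were separate for 13 of the 19 genes in the lower direction, against 13.6% of all genes. In the higher direction it was 0, against 10.6%. The mean level of the list was 9.65, 9.99 and 10.04 on the control ESC arrays and 9.21, 9.43 and 9.27 on the knockdown ESC arrays. In knockdown NPC 1 of the 19 rose and 0 fell, where 0.820% of all genes rose. That gene was Utf1, a chromatin factor of pluripotent cells (1.44 ± 0.21, SE, adjusted p = 0.00558 by limma). Its call was lost with the 6 NPC arrays alone (adjusted p = 0.0793).

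Among naive pluripotency genes, none passed the test as lower in knockdown ESC. Of 20, 2 rose and 0 fell, while 1.84% of all genes rose, and the median change was 0.18. Tcl1, a cofactor of the kinase Akt, rose by 0.75 ± 0.15 (SE, adjusted p = 0.0142 by limma), and Pecam1, an adhesion gene of naive ESC and endothelium, by 0.86 ± 0.18 (SE, adjusted p = 0.0187 by limma). Leaving out control replicate 3 took the adjusted p of Tcl1 to 0.0850 and that of Pecam1 to 0.101 in limma, so the list had 0 calls. Leaving out knockdown replicate 3 took them to 0.0709 and 0.0826, again with 0 calls, and Pecam1 was at 0.0566 when knockdown replicate 1 was left out. The list had 4 calls with control replicate 1 left out. The LIF receptor gene Lifr (0.39 ± 0.11, adjusted p = 0.0576) and the LIF-induced inhibitor gene Socs3 (0.44 ± 0.13, SE, adjusted p = 0.0682 by limma) did not pass. Both passed as higher in limma with array weights (0.0159 and 0.00751) and without control replicate 1 (0.0348 and 0.0117). Lifr also passed among genes with a mean above 6 (0.0456), with the trended prior (0.0484), with quantile normalization (0.0434) and without knockdown replicate 2 (0.0453). Knockdown and control ESC arrays were separate for 10 naive genes in the higher direction, against 10.6% of all genes, and for 2 in the lower direction, against 13.6%. The mean of the list was 11.23, 11.08 and 11.12 in control and 11.35, 11.25 and 11.35 in knockdown ESC.

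**Figure D3:**
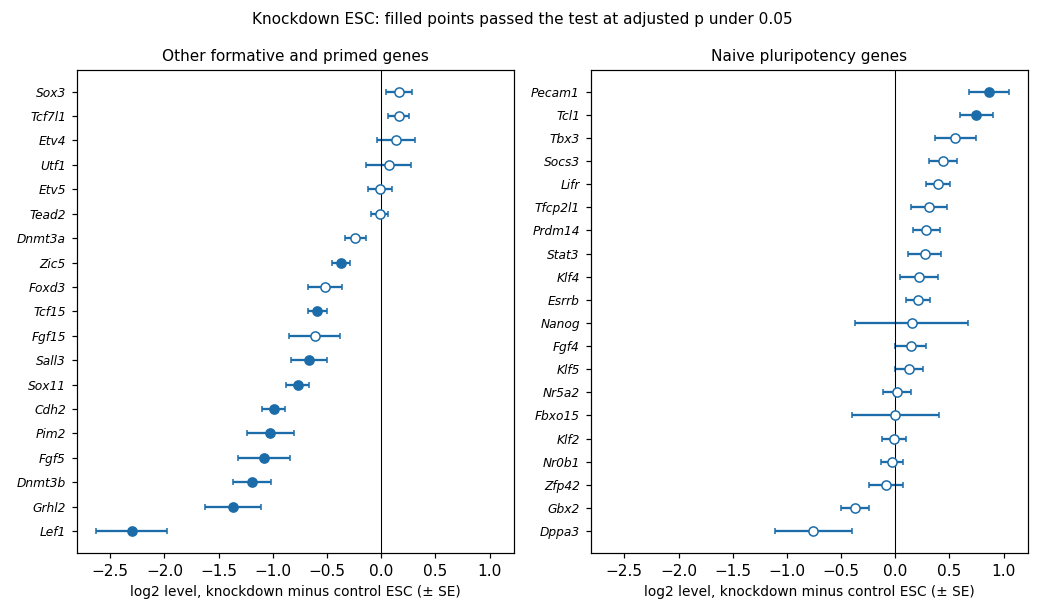
Knockdown minus control log2 level in ESC (± SE, 3 arrays against 3) for 19 other formative and primed genes and 20 naive pluripotency genes. The SE uses the spread shared by the ESC and NPC arrays. Filled points passed limma's test, 10 lower on the left and 2 higher on the right.

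Of 5 core pluripotency genes 0 rose and 0 fell in knockdown ESC, where Lin28a had the smallest p (-0.42 ± 0.13, SE, adjusted p = 0.0755 by limma). Lin28a did pass as lower with the 6 ESC arrays alone (adjusted p = 0.0435 by limma) and with array weights (0.0393). The ESC groups were separate for 2 core genes in the higher direction, against 10.6% of all genes, and for 2 in the lower, against 13.6%. At an unadjusted p under 0.05 there was 1 of 5, Lin28a, against 19.2% of all genes. Sox2 (0.11 ± 0.10), Sall4 (-0.12 ± 0.13) and Tdgf1 (0.18 ± 0.19, all SE) did not pass either. Of 11 genes of lineage entry from the epiblast 0 rose and 2 fell, the signalling genes Nodal (-0.79 ± 0.15, adjusted p = 0.0110) and Lefty1 (-0.95 ± 0.25, SE, adjusted p = 0.0494 by limma). Nodal lost the call without control replicate 3 (adjusted p = 0.0634 by limma). Lefty1 lost it on leaving out any 1 ESC array but knockdown replicate 1 (adjusted p from 0.0542 to 0.192), under quantile normalization (0.0780) and with the 6 ESC arrays alone (0.0771). The mesendoderm factors Eomes (-0.72 ± 0.21, adjusted p = 0.0631) and Mixl1 (-0.62 ± 0.19, SE, adjusted p = 0.0808 by limma) did not pass. Both passed as lower in limma with array weights (adjusted p = 0.00688 and 0.00862) and without control replicate 1 (0.0172 and 0.0460). Marker lists of other cell types also had calls in the same arrays, where 3.37% of all genes fell and 1.84% rose. Of trophoblast markers 2 of 5 fell (mean level 8.08 to 8.65 in control and 7.59 to 8.02 in knockdown ESC) and 3 of 8 neuronal markers fell (8.48 to 8.61 and 8.25 to 8.46). Of 9 neural progenitor markers 1 rose and 1 fell, of 7 endoderm markers 1 fell, and of 5 mesoderm markers 1 rose. Of 8 ESC markers 0 rose and 0 fell in this contrast. The part of these markers in the formative and primed values was not tested.

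In knockdown NPC 0.820% of all genes rose and 0.213% fell. Of the 20 naive genes 3 rose and 0 fell, named after their values were seen: Klf2 (0.98 ± 0.11), Esrrb (0.64 ± 0.11) and Fbxo15 (1.93 ± 0.40, SE). Of the 5 core genes Tdgf1 rose (1.02 ± 0.19, SE), and of the 11 lineage entry genes Nodal (0.74 ± 0.15, SE). Klf2 kept its call on leaving out any 1 NPC array. The call of Esrrb ended in limma when control replicate 2 (adjusted p = 0.0568), knockdown replicate 1 (0.0707) or knockdown replicate 2 (0.0647) was left out. For Fbxo15 and Nodal 5 of the 6 such fits ended it, and for Tdgf1 4 of the 6. With the 6 NPC arrays alone limma called neither Esrrb (adjusted p = 0.0904), Fbxo15 (0.206), Tdgf1 (0.152) nor Nodal (0.120). Array weights ended the calls of Fbxo15 (0.0979), Tdgf1 (0.0844) and Nodal (0.0661), and the trended prior that of Fbxo15 (0.0802). Fbxo15 had a mean of 5.27 in control NPC, below the lower quartile of every array (5.84 to 6.11), and 7.20 in knockdown NPC.

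Family relatives of the factors split by gene. Of 17 measured relatives 0 rose and 4 fell in knockdown ESC, where 3.37% of all genes fell: Sox11, Sall3 and Zic5, which the formative list also holds, and the claudin gene Cldn7 (-0.67 ± 0.16, SE, adjusted p = 0.0311 by limma). Cldn7 lost the call without control replicate 3 (adjusted p = 0.149) or any 1 knockdown array (0.0608 to 0.129). In the RefSeq gene table Cldn9 is the next coding gene after Cldn6, and Zic5 the one before Zic2. Cldn9 measured 7.42, 7.53 and 7.62 in control and 7.15, 7.27 and 7.26 in knockdown ESC, lower in every knockdown array (-0.30 ± 0.11, SE, adjusted p = 0.142 by limma). With array weights Cldn9 passed (adjusted p = 0.0324 by limma). Zic5 measured 9.05, 9.18 and 9.16 in control and 8.84, 8.73 and 8.70 in knockdown ESC. Its fall of 0.37 lost the call without control replicate 2 or 3 or knockdown replicate 2 or 3 (adjusted p from 0.0840 to 0.129). Claudin and Zic genes resemble each other in sequence, and how far the probe sets tell them apart was not measured.

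The POU relatives Pou3f2 (-0.033 ± 0.21), Pou3f3 (0.055 ± 0.17) and Pou3f4 (-0.39 ± 0.20) did not pass in ESC, nor did Otx1 (-0.059 ± 0.11), Crx (0.12 ± 0.10), Sall1 (0.23 ± 0.12) or Sall4. Sox12 (-0.24 ± 0.095), Cldn3 (-0.19 ± 0.13), Cldn4 (-0.091 ± 0.15), Zic1 (-0.097 ± 0.14) and Zic4 (0.20 ± 0.089, all SE) did not pass either. Pou3f4 did pass as lower with array weights (adjusted p = 0.0434 by limma) and without control replicate 1 (0.0423). From control ESC to control NPC some relatives went the way of their factor and others did not. Otx1 (-0.39 ± 0.11) and Zic5 (-0.38 ± 0.087) were lower, as Otx2 and Zic2 were. Sall3 was higher (0.37 ± 0.17, all SE), as Sall2 was. Pou3f1 was 0.57 lower in control NPC, while Pou3f2, Pou3f3 and Pou3f4, factors of neural progenitors and neurons, were higher by 3.06 ± 0.21, 2.39 ± 0.17 and 4.26 ± 0.20 (SE). Zic2 was 0.24 lower and Zic1 4.74 ± 0.14 (SE) higher. Sox4 and Sox11 were both higher, by 2.08 and 3.44, and Sall2 was 1.56 higher while Sall4 was 2.09 ± 0.13 (SE) lower. The control ESC arrays of this comparison were also used to choose the factors, so it carries no test here.

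**Figure D4:**
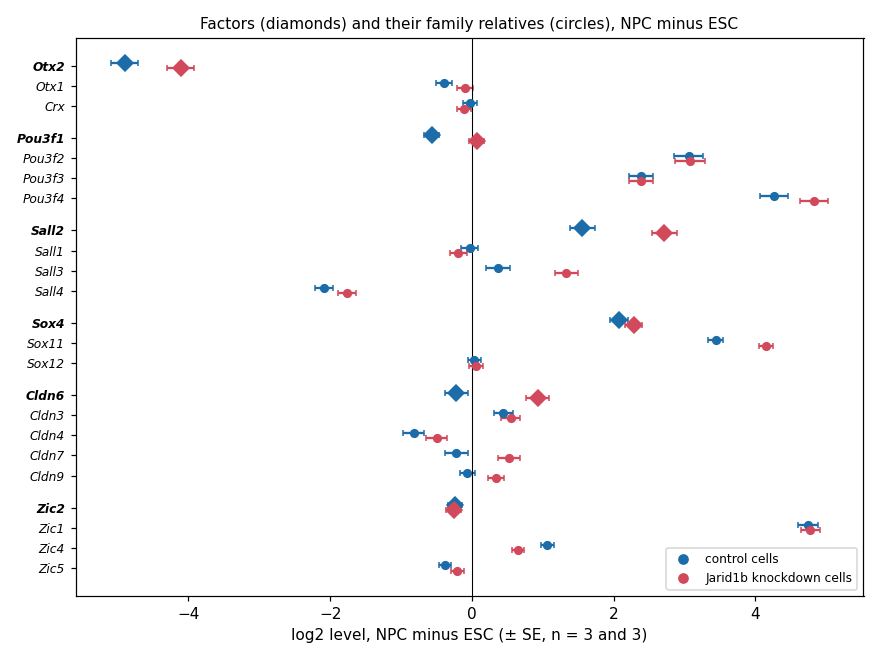
NPC minus ESC log2 level (± SE, 3 arrays against 3) for each factor, shown as a diamond, and for its measured family relatives, shown as circles, in control and in knockdown cells. The SE uses the spread shared by the ESC and NPC arrays. Otx2 lies at -4.90 and -4.11, while Zic1, Pou3f4 and Sox11 lie from 3.44 to 4.82 in both.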

How the data were processed

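RNA from ESC and NPC with control or Jarid1b shRNA was measured on 12 Affymetrix mouse gene arrays, 3 per group. The deposited values are log2 levels. The tools named per the submitters' processing notes are RMA in affy, with limma, and neither versions nor a genome build are given in the sources used here. This normalization makes arrays alike in distribution and compresses differences near the floor, and its values come with no detection calls. The deposited arrays still differed slightly, with medians from 7.70 to 7.79 and lower quartiles from 5.84 to 6.11. Precision is limited by the 3 arrays per group.

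The platform annotation paired 18786 of 21212 probe sets with 1 gene symbol, 6 with several and 2420 with none. Symbols were unchanged on a match by Entrez ID to RefSeq (18775 matched). The highest-mean probe set stood for a gene. A group-means model on all 12 arrays was fitted with limma 3.58.1 in R 4.3.3 and default eBayes. Each gene has 1 spread shared by the ESC and NPC arrays, so an SE in one state also carries scatter from the other. P-values are two-sided, adjusted by Benjamini-Hochberg over 18784 genes, and a gene rose or fell at an adjusted p under 0.05. Steps were tested on simulated data.

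The factors and lists were chosen with earlier results of these data known. Named genes were the factors, Kdm5b, measured family relatives, the 4 smallest ESC p-values per list and the 2 genes of highest correlation per factor. Others are marked in the text. The fits were repeated with quantile normalization, array weights, median centring, a trended and robust prior, probe sets averaged per gene, genes with a mean above 6 alone, replicate as a block, only the 6 arrays of a contrast, and each array left out.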

Additional observations from a re-analysis of the deposited data

Results flagged for a closer look

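For 14 genes named above the knockdown effect differed between NPC and ESC by limma's interaction test. Over all genes 267, or 1.42%, passed it, and the 14 are no share to set beside that. No explanation is offered. Except for Kdm5b, the targeted gene, these genes had been named for their ESC values, their NPC values or their likeness to the factors on the same arrays. The adjusted p-values of these others therefore carry that choice and are no independent evidence of a difference.

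The NPC effect minus the ESC effect was 0.96 for Kdm5b (adjusted p = 0.0172). Among genes named for ESC calls it was 0.87 for Cdh2 (0.0239), 0.71 for Sox11 (0.0406), 1.12 for Dnmt3b (0.0443), 1.53 for Nodal (0.00738), 2.00 for Lefty1 (0.0239), 0.91 for Tcf15 (0.00738) and -1.55 for Pecam1 (0.0185). Among those named for NPC calls, Nodal apart, it was 1.37 for Utf1 (0.0437) and 0.99 for Klf2 (0.0151). Among those named for likeness it was 1.495 for Ccno (0.0259), 0.91 for Adgrl2 (0.0478), 0.98 for Timm21 (0.0405) and 1.07 for Ugt8a (0.00920).

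The calls for Nodal, Tcf15 and Ugt8a held on leaving out any 1 of the 12 arrays. Klf2 lost the call without knockdown NPC replicate 2 (0.0505). Without control ESC replicate 3 the adjusted p was 0.0591 for Kdm5b, 0.0694 for Cdh2, 0.0635 for Pecam1 and 0.0713 for Lefty1. The call was also lost for Kdm5b without knockdown NPC replicate 2 (0.0512), for Cdh2 without knockdown ESC replicate 3 (0.0715) or knockdown NPC replicate 2 (0.0694), and for Pecam1 without those arrays (0.0625 and 0.0510). For Lefty1 it was lost without knockdown ESC replicate 2 (0.0607) or 3 (0.0641), control NPC replicate 2 (0.0568) or knockdown NPC replicate 1 (0.0646). Sox11 and Dnmt3b lost the call on leaving out any 1 array but control ESC replicate 1 (0.0593 to 0.0977 and 0.0648 to 0.130). Utf1 lost it in 9 of the 12 such fits (0.0579 to 0.115), Ccno in 7 (0.0512 to 0.0787), Adgrl2 in 11 (0.0581 to 0.122) and Timm21 in 10 (0.0626 to 0.105).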

How the results depend on the processing

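The median ESC change of the 6 factors stayed between -0.51 and -0.37 in all 14 alternatives, and 0 of 6 factors passed in NPC in any (lowest adjusted p = 0.143, Otx2 without control NPC replicate 1). Sall2 (-0.12 to 0.027) and Sox4 (-0.030 to 0.018) changed sign in NPC among the fits without 1 array. The count of genes called in ESC was 979. It was 2887 with array weights, 500 with the 6 ESC arrays alone, and 193 (without control replicate 3) to 1536 (without control replicate 1) on leaving out 1 array. In between it was 621 without control replicate 2 and 633, 472 and 283 without knockdown replicates 1, 2 and 3. In NPC it was 194, then 29 with the 6 NPC arrays alone and 83 (without knockdown replicate 1) to 220 on leaving out 1, with 98 without control replicate 2 and 91 without knockdown replicate 2. Calls in the formative and primed list were 10, then 5 with 6 arrays and 5 to 10 without 1 array. Calls in the naive list were 2, then 6 with array weights and 0 to 4 without 1 array. The 0 came without control replicate 3 or knockdown replicate 3. Relatives with no call in ESC changed sign: Otx1 (0.0020 with array weights, -0.14 to 0.036 without 1 array), and, without 1 array, Pou3f2 (-0.29 to 0.17), Pou3f3 (-0.038 to 0.23), Cldn4 (-0.24 to 0.062) and Zic1 (-0.28 to 0.042). The causes were not tested.

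Replicate numbers are shared by the groups, but same-numbered arrays deviated together at only -0.026 to 0.092 in ESC and -0.17 to 0.19 in NPC, so the numbers were not taken to pair them. With a replicate block 965 genes were called in ESC, 174 in NPC and 10 in the formative list. In NPC the block ended the Nodal call (adjusted p = 0.0613) and added Lefty1 (0.0325). It also ended the state differences of Sox11 (0.0523), Dnmt3b (0.0509), Utf1 (0.0553), Adgrl2 (0.0582) and Timm21 (0.0516). Median centring ended those of Sox11 (0.0536), Dnmt3b (0.0561) and Adgrl2 (0.0622), and quantile normalization that of Utf1 (0.0567). Every array correlating best with its own number held for 3 of 6 arrays in ESC and 2 of 6 in NPC. Values near the floor, such as Otx2 in NPC, limit how well a change there can be sized.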
